A study of Mus musculus with 14 samples.

Results

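The genes described here are 10 that encode immune checkpoint ligands and receptors and the surface signals that permit or restrain engulfment by phagocytes: Cd47, Sirpa, Cd24a, Siglecg, Cd274, Pdcd1lg2, Lgals9, Havcr2, Cd80 and Cd86. They were chosen by name from the 21138 genes of a deposited table of raw counts, and all 10 had counts. The table holds Smart-seq2 libraries, 1 full-length library per cell, of 648 mouse cells in 14 samples. In 9 tumor-bearing samples, female C57BL/6J mice of 6 to 8 weeks had been injected with B16F10 cells carrying a fluorescent label. B16F10 is a melanoma line that arose in C57BL/6J mice. Cells from blood or lung were sorted into 3 classes by markers of tumor and host, which are not named. The labels call the classes CTC, the usual abbreviation of circulating tumor cells, WBC, that of white blood cells, and DP, which they do not spell out. Counts were taken from 450 DP cells in 9 samples, 43 CTC in 5 and 46 WBC in 6. The 5 controls had 1 sample each: 22 cultured B16F10 cells (cell type CTC in the labels) and 18 CDP, 24 Duplike, 24 PltLike and 21 WBC cells, labelled naive C57BL/6J females of the same age. The labels do not explain the names CDP, Duplike and PltLike, and nothing in them says that each sample is another animal, so the spread behind the p-values may be technical. Samples are called by class and replicate number, where replicates 7 to 9 are those labelled P1, P2 and P4.

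CD47 on a target cell binds SIRPα on a phagocyte, which recruits phosphatases that restrain engulfment, and in mice CD24 can act in a like way through Siglec-G, an inhibitory lectin receptor best known from B cells. PD-L1 (Cd274) and PD-L2 (Pdcd1lg2) are the ligands of PD-1 on T cells, and galectin-9 (Lgals9) is a ligand of TIM-3 (Havcr2), a receptor of T cells and of myeloid cells. CD80 and CD86 are ligands of antigen-presenting cells that activate T cells through CD28 and restrain them through CTLA-4. B16F10 cells are known to express CD47 and to raise PD-L1 when they meet interferon gamma.

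Promoter sequence is shown for 4 genes whose levels contrast in the data: Cd47 and Lgals9, which were read in most cells of every class, and Siglecg and Cd80, which were rare outside leukocytes. Each run is the 200 bases that end 51 bases before the most upstream RefSeq start (GRCm38.p6), on the gene's strand, 5′ to 3′, with CG dinucleotides in capitals. The windows lie at chr16:49855404-49855603 (Cd47, plus strand), chr11:78984975-78985174 (Lgals9, minus strand), chr7:43407989-43408188 (Siglecg, plus strand) and chr16:38458683-38458882 (Cd80, plus strand). The Cd47 and Cd80 windows lie inside the gene spans of GENCODE, which begin at 49800533 and 38455561. For these genes GENCODE thus has a start further upstream than the RefSeq start used.
Cd47: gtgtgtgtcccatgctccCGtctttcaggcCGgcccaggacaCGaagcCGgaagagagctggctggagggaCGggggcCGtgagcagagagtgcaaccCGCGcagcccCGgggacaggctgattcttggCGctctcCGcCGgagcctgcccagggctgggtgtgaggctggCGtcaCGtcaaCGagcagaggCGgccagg
Lgals9: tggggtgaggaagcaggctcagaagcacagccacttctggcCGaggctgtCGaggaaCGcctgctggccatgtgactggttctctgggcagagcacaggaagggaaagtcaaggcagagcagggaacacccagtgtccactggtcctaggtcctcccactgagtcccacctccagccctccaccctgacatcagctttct
Siglecg: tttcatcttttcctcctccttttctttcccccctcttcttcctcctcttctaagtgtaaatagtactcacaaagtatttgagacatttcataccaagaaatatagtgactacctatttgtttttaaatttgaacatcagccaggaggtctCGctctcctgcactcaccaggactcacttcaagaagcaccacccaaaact
Cd80: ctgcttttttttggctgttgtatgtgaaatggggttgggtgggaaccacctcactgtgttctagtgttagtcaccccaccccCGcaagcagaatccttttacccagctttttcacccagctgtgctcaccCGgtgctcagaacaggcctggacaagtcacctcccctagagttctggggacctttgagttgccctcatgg
The Cd47 window has 16 CG dinucleotides and is 69.5% G and C, and 86.4% of 27025 promoter windows of this length hold as many or fewer. Lgals9 has 3 (46.1% of windows hold as many or fewer), Cd80 has 2 (36.9%) and Siglecg has 1 (25.3%). The median window has 4, and 88.58% have at least 1. The letters GAGGAAG, which fit the binding preference of the myeloid and B-cell factor PU.1, occur once in the Lgals9 window and once in the Siglecg window, counting both strands, and in 7.9% of all windows. TTCNNNGAA, the form bound by STAT factors after interferon gamma, is in 5.86% of all windows, and is in none of the windows of the 7 genes that the RefSeq table holds, Cd274 included (7 CG dinucleotides). These matches are descriptions of letters only. Sirpa, Cd24a and Cd86 are not in the table.

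Libraries of the tumor-bearing samples held 208 to 1728 Mcounts (megacounts) each and the controls 26.6 (naive WBC) to 471. The median cell had 22.1 Mcounts in CTC, 15.8 in DP, 4.93 in WBC and 1.05 in naive WBC. Levels are CPM, counts per megacount of the counts summed per sample over both tissues unless a tissue is named. The class labels were checked by Ptprc, the gene of CD45, a leukocyte antigen often used in sorts (CTC 0.20 ± 0.12 CPM, SD, n = 5; DP 148 ± 153, n = 9; WBC 536 ± 300, n = 6), and by the melanocyte gene Pmel (7547 ± 3639, 5247 ± 2672 and 25.3 ± 37.6). Clustering without the 10 genes gave a branch with high melanocyte genes, called melanoma-like (402 cells), and another branch of 246 cells. The DP class was split: 272 DP cells in 8 samples were melanoma-like (200 from blood, 72 from lung) and 178 in 9 samples lay in the other branch (73 from blood, 105 from lung). Of CTC, 42 of 43 were melanoma-like, and all 46 WBC lay in the other branch. Among controls, all 22 B16F10, 18 CDP, 24 Duplike and 24 PltLike cells were melanoma-like, and all 21 naive WBC lay in the other branch. Pmel was at 7272 CPM in B16F10, 7546 in CDP, 8010 in Duplike and 7341 in PltLike. Replicate 4 held DP cells from lung only, and all 15 lay in the other branch. Its Pmel was at 5.54 CPM, against 2945 to 8144 in DP of the other 8 samples over both tissues. In lung DP alone, Pmel ran from 0.270 to 7391 CPM over 7 samples (median 393), so replicate 4 was not outside that range. T-cell and NK-cell markers were nearly absent from WBC (summed level 0 to 48.8 CPM) and at 0 for all 6 markers in naive WBC. Naive WBC, which should lack Pmel, had 13.8 CPM of it (exact 95% Poisson interval 12.4 to 15.3), so low levels can be background, whose source was not tested. Counts of RNA summed over cells cannot tell fewer expressing cells from less RNA per cell.

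Across the sorted classes, Cd47, Sirpa and Lgals9 had counts in every sample, and CTC nearly lacked Cd24a, Siglecg and Cd86. Levels of Cd274, Havcr2, Pdcd1lg2 and Cd80 were uneven between samples of a class. In CTC, per kilobase of exon, Lgals9 was highest (52.3 CPM per kb), followed by Sirpa (25.1), Cd47 (11.5), Cd274 (4.67) and Havcr2 (1.28), and Cd80 came next at 0.141. The Havcr2 and Cd80 means rest mostly on 1 cell each (replicates 1 and 2), and their median CTC samples were at 0.022 and 0 CPM. In WBC the order was Cd24a (315 CPM per kb), Lgals9 (136), Cd47 (75.6), Cd274 (60.3), Cd86 (47.1), Sirpa (41.4) and Siglecg (36.0). Between DP and WBC, 4 of the 10 genes were called lower in DP (Cd47, Cd24a, Siglecg and Cd86) and 0 higher, where 2.91% of 12595 tested genes were called lower and 17.6% higher. Between DP and CTC, 2 were called higher in DP (Cd24a and Cd86), against 5.85% of all genes. Between CTC and WBC, 7 were called lower in CTC (Pdcd1lg2, Cd47, Cd24a, Siglecg, Lgals9, Cd80 and Cd86), against 10.6% of all genes. The median log2 difference of the 10 genes was -1.92 (all genes 1.17), 5.79 (0.21) and -6.01 (0.74) in these comparisons, which share the samples of each class. With DESeq2 they were 6, 6 and 10 members, in the same directions, where it called 5283, 1469 and 5829 of all genes. Without replicate 4 the counts of called members were again 4, 2 and 7, and in lung cells alone, an alternative chosen after seeing the data, no call of a member remained. Sums of at least 5 cells ended the calls of Cd47, Siglecg and Cd86 between DP and WBC and of Pdcd1lg2, Lgals9 and Cd80 between CTC and WBC. Blood cells alone ended those of Siglecg and Cd86 (DP and WBC) and of Pdcd1lg2 and Cd80 (CTC and WBC), and equal weight per cell those of Cd47 and Siglecg (DP and WBC) and Lgals9 (CTC and WBC). A call is an adjusted p under 0.05 in edgeR (quasi-likelihood test, Benjamini-Hochberg adjustment over all genes tested, sample as a block).

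**Figure D1:**
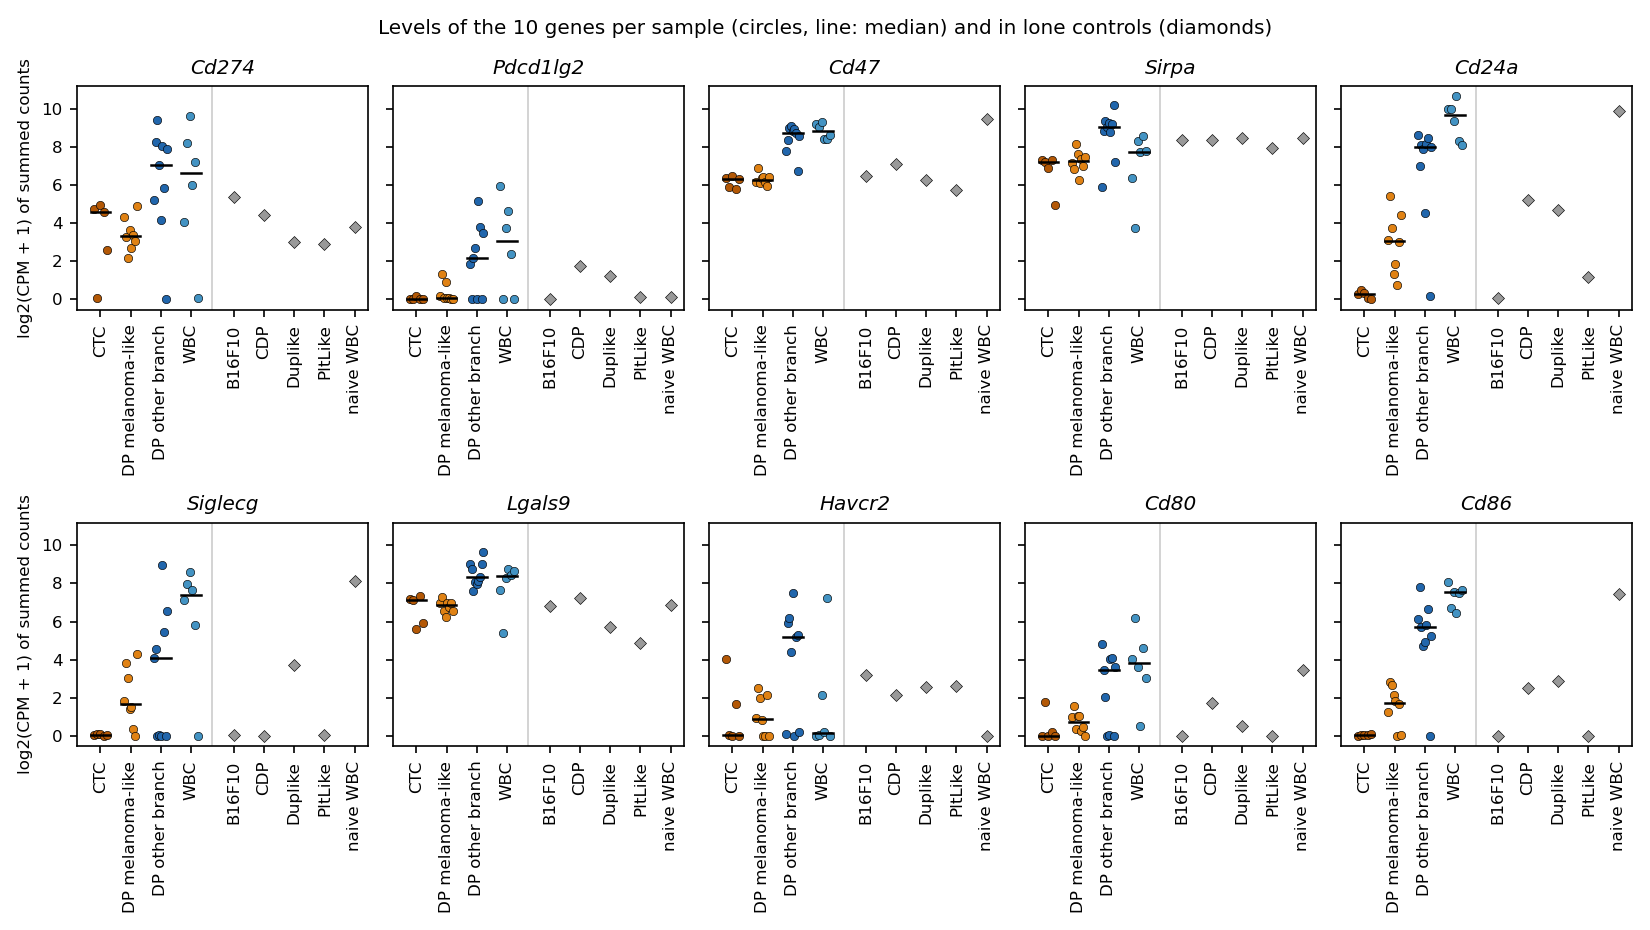
Level of each of the 10 genes as log2(CPM + 1) of summed counts (y axis) per sample of each class or branch (circles, with the median as a line) and in the 5 controls with 1 sample each (diamonds). Cd47, Sirpa and Lgals9 were at 29.8 CPM or more in all 5 CTC samples, while Cd24a, Siglecg and Cd86 were at 0.420 CPM or less in each of them.

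Cd47, the ligand of the pair that restrains engulfment (chromosome 16, 49800533 to 49915010), was lowest in CTC and highest in WBC. In CTC the 5 samples had 80.9, 57.8, 88.8, 53.8 and 79.2 CPM (replicates 1, 2, 3, 5 and 6). The 6 WBC samples ranged from 342 to 638 CPM with a median of 463, and the 9 DP samples from 61.3 to 558 with a median of 153. No CTC sample reached the lowest WBC sample, whereas DP overlapped with both. The log2 difference between CTC and WBC was -3.41 ± 0.60 (SE; edgeR adjusted p = 0.000174; lower in 5 of 5 samples that held both). Between DP and WBC it was -1.79 ± 0.52 (edgeR adjusted p = 0.0178; lower in 5 of 6), a call that was lost without replicate 1, 3 or 5 (adjusted p up to 0.0740). DP was above CTC by 1.62 ± 0.58, which was not called (adjusted p = 0.120).

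Within the branches the DP cells lay near the class they resembled. Melanoma-like DP had 60.1 to 118 CPM of Cd47 in 8 samples (median 76.6), where replicate 2 was highest, and overlapped with CTC. The log2 difference from melanoma-like CTC was 0.44 ± 0.36, not called. DP of the other branch had 105 to 558 CPM in 9 samples (median 430), overlapping with WBC. Cultured B16F10 cells were at 86.9 CPM (exact Poisson interval 85.9 to 88.0), inside the CTC range, and CDP, Duplike and PltLike at 138, 76.6 and 52.6 CPM. Naive WBC had 720.3 CPM in a sum of 26.6 Mcounts, above the 342 to 638 CPM of the 6 WBC samples over both tissues. It was inside their span of 20.2 to 778 CPM in blood alone.

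Sirpa, the receptor of CD47 (chromosome 2, 129592835 to 129632228), was found in melanoma-like cells as well as in leukocytes. Its paralogs Sirpb1a, Sirpb1b and Sirpb1c are close in sequence, so part of its counts may be theirs and the reverse. The 5 CTC samples had 158, 148, 120, 159 and 29.8 CPM. The lowest, median and highest values were 90.6, 262 and 521 CPM in DP and 12.6, 213 and 376 in WBC. Replicate 6 was low among CTC, and all 3 classes overlapped. No difference was called: DP minus WBC was -0.20 ± 0.61 (log2, edgeR adjusted p = 0.860), DP minus CTC 1.21 ± 0.67 (0.617) and CTC minus WBC -1.42 ± 0.67 (0.118). Cultured B16F10 cells were at 324 CPM, above each CTC sample, and naive WBC were at 359.8.

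Within the other branch Sirpa varied by cluster. In per-sample sums it averaged 697 ± 112 CPM (SD, n = 4 samples) in cluster 5, whose leading genes are those of alveolar macrophages (Chil3, Atp6v0d2, Plet1), and 655 ± 351 (n = 7) in cluster 4, led by macrophage genes such as C1qb and Spp1. It was 11.1 ± 2.58 (n = 2) in tumor-bearing samples of cluster 8, led by the neutrophil genes S100a8 and S100a9, and 155 CPM over all 24 cells of that cluster, 13 of them controls. Cluster 9, led by fibroblast genes, had 1.32 ± 1.39 (n = 3). Cd47 and Sirpa were both at 10 CPM or more in 192 of 272 melanoma-like DP cells (70.6%, exact binomial interval 64.8 to 75.9), so most of these cells held transcripts of ligand and receptor together. The share expected from the product of the single shares was 68.4%.

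**Figure D2:**
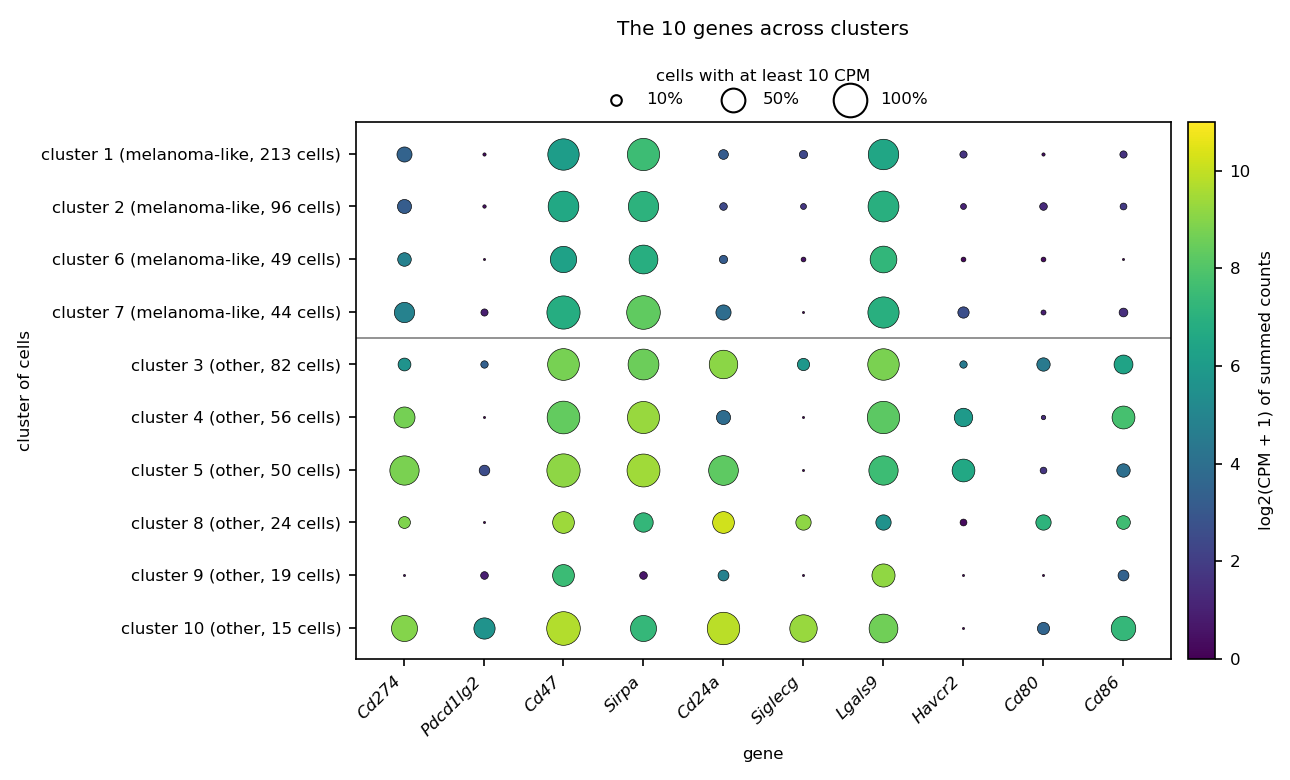
The 10 genes (x axis) across the 10 clusters of cells (y axis), with colour for log2(CPM + 1) of the counts summed over a cluster and circle area for the percentage of its cells at 10 CPM or more. Cd47, Sirpa and Lgals9 have large circles in the melanoma-like clusters, Havcr2 is largest in clusters 4 and 5, and Siglecg in cluster 10.

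Cd24a, a small glycosylated surface protein carried by B cells, granulocytes and some myeloid cells (chromosome 10, 43578284 to 43584265), separated the classes most clearly. Near-identical copies of this gene lie elsewhere in the mouse genome, so its counts are uncertain. The 5 CTC samples had 0.236, 0.420, 0.258, 0.060 and 0 CPM. DP had 4.73, 78.9 and 239.7 CPM (lowest, median and highest of 9 samples) and WBC 275, 828 and 1625 (of 6). The 3 classes did not overlap, with CTC lowest and WBC highest. The log2 difference of DP from WBC was -4.54 ± 0.81 (edgeR adjusted p = 0.000638; lower in 6 of 6 samples), and that from CTC 9.01 ± 1.10 (adjusted p = 6.83e-06; higher in 5 of 5). CTC differed from WBC by -13.55 ± 1.27 (adjusted p = 5.71e-08). In lung cells alone the adjusted p was 0.452 against WBC and 0.309 against CTC for DP.

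Siglecg, the receptor paired with CD24 (chromosome 7, 43408204 to 43418358), was highest in B-cell-like cells and in 1 sample of a neutrophil-led cluster. CTC were at 0.039, 0.055, 0.084, 0.008 and 0.039 CPM, DP at 0, 4.29 and 42.4 (lowest, median and highest), and WBC at 0, 172 and 391. WBC of replicate 6 had 0 counts, so DP and WBC overlapped. The log2 difference of DP from WBC was -7.05 ± 1.97 (edgeR adjusted p = 0.0135; lower in 5 of 6 samples), lost without replicate 2 (adjusted p = 0.105). The difference of CTC from WBC was -12.78 ± 2.66 (adjusted p = 0.000827). In cluster 10, where all 4 B-cell markers were high, Siglecg averaged 648 ± 352 CPM (n = 4 samples). Of its 15 cells, 10 held both Cd24a and Siglecg at 10 CPM or more (66.7%, product of the single shares 62.2%). In cluster 8, led by neutrophil genes, replicates 2 and 5 had 695 and 0 CPM, and cluster 3 averaged 57.5 ± 35.8 (n = 7). In clusters 4 and 5, which are led by macrophage genes and hold most lung DP cells of this branch, the means were 0.033 ± 0.053 (n = 7) and 0.006 ± 0.011 CPM (n = 4).

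PD-L1, encoded by Cd274 (chromosome 19, 29367455 to 29388095), was uneven between samples of each class. The 5 CTC samples had 26.3, 0.061, 29.9, 23.4 and 4.95 CPM. DP had 7.12, 21.3 and 346 CPM (lowest, median and highest), and WBC 0.046, 106 and 782. Each class overlapped with the others, and WBC of replicate 6 and CTC of replicate 2 were nearly without it. No class difference was called: DP minus WBC was -1.29 ± 1.28 (log2, edgeR adjusted p = 0.532), DP minus CTC 2.23 ± 1.49 (0.907) and CTC minus WBC -3.51 ± 1.69 (0.127). Single cells carried much of these sums: 1 cell gave 90.8% of the counts in CTC of replicate 3 and 99.8% in WBC of replicate 2. In DP of replicate 3, the highest DP sample, the largest share of 1 cell was 11.9%.

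Most of the PD-L1 in DP came from cells of the other branch. There the 9 samples had 0, 130.2 and 689.8 CPM (lowest, median and highest), against 3.44, 9.15 and 29.5 in the 8 samples with melanoma-like DP. After each cell was thinned to 500000 counts, Cd274 had a count in 24.6% of melanoma-like DP cells and 25.6% of CTC, close to each other, in 40.9% of B16F10 cells and in 41.9% of WBC. In naive WBC the share was 5.88%, and 1 cell gave 99.1% of their counts. The B16F10 culture had 39.8 CPM (exact Poisson interval 39.1 to 40.5), with 40.1% of the counts from 1 of 22 cells and a median cell at 0.207 CPM. Melanoma-like DP averaged 11.8 ± 8.51 CPM (n = 8) and melanoma-like CTC 16.9 ± 13.5 (n = 5), and DP was higher in 2 of 5 samples with both. The fitted log2 difference had the opposite sign to these means, at 1.30 ± 1.95, and was not called.

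Pdcd1lg2, which encodes PD-L2 and begins 22823 bases past the end of Cd274, was low in most samples. CTC had 0.020, 0.006, 0.114, 0.004 and 0 CPM. DP had 0.003, 1.5 and 5.50 CPM (lowest, median and highest) and WBC 0, 8.34 and 61.7. The groups overlapped, since the lowest WBC sample was at 0. CTC minus WBC was -8.34 ± 2.63 (log2, edgeR adjusted p = 0.0197), lost without replicate 1 or 5 (adjusted p up to 0.341). DP minus CTC, at 6.29 ± 2.25, did not pass (adjusted p = 0.123). The B-cell-like cluster 10 held the highest level by cluster, 42.7 ± 34.2 CPM (n = 4 samples), and B16F10 cells had 0 counts, which allows up to 0.00915 CPM.

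Lgals9, which encodes galectin-9 (chromosome 11, 78962974 to 78984946), was present in every class. CTC had 146, 142, 47.5, 163 and 60.9 CPM, DP 103, 157 and 317 (lowest, median and highest) and WBC 41.2, 333 and 435. All classes overlapped. CTC minus WBC was -2.70 ± 0.69 (log2, edgeR adjusted p = 0.0049, lower in 4 of 5 samples). DP minus WBC, at -1.19 ± 0.74, and DP minus CTC, at 1.52 ± 0.69, were not called (adjusted p = 0.276 and 0.348). DP minus WBC was called by DESeq2 (-1.41, adjusted p = 0.0439) and by edgeR in blood alone (-2.28, adjusted p = 0.0133). In lung alone it had the opposite sign (1.36, not called). WBC averaged 403 CPM in blood (n = 6) and 118 in lung (n = 3), and DP 160 and 270 (n = 7 each). Melanoma-like DP, at 112 ± 24.8 CPM (n = 8), lay within the CTC range, and DP of the other branch averaged 400 ± 190 (n = 9). B16F10 cells had 113 CPM.

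Havcr2, which encodes TIM-3, a receptor of galectin-9 (chromosome 11, 46454935 to 46481255), was found in few cells outside clusters 4 and 5. In cluster 3 all 8 monocyte and macrophage markers had medians of 10 CPM or more, but Havcr2 reached 10 CPM in 4 of 82 cells. CTC had 15.2, 0.022, 0.013, 2.16 and 0 CPM, and all counts of replicate 1 came from 1 of its 3 cells. DP had 0, 8.22 and 37.4 CPM (lowest, median and highest), and WBC 0, 0.10 and 148, the highest value being replicate 5, where 1 cell gave 73.5%. All classes overlapped, and no difference was called (DP minus WBC 2.34 ± 2.10, edgeR adjusted p = 0.477). Of 178 DP cells of the other branch, 34 had both Lgals9 and Havcr2 at 10 CPM or more (19.1%). The product of the single shares was 19.8%. Havcr2 had 0 counts in naive WBC, which allows up to 0.113 CPM.

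Cd80 and Cd86, the genes of the ligands of CD28 and CTLA-4, were at 2.45 CPM or less in every CTC sample. Among 46 WBC, Cd86 reached 10 CPM in 15 cells and Cd80 in 7. For Cd86 (chromosome 16, 36603869 to 36666081), CTC had 0, 0.028, 0.054, 0.033 and 0.088 CPM, DP 2.09, 11.9 and 97.5 (lowest, median and highest), and WBC 85.6, 186 and 269. DP lay above every CTC sample, and overlapped with WBC only through replicate 2, where 1 cell gave 84.3% of the counts. The log2 difference was -4.07 ± 0.93 for DP minus WBC (edgeR adjusted p = 0.00402; lower in 6 of 6 samples) and 9.12 ± 1.34 for DP minus CTC (adjusted p = 6.81e-05; higher in 5 of 5). CTC minus WBC was -13.19 ± 1.53 (adjusted p = 8.47e-07). After thinning, Cd86 had a count in 0 of 43 CTC (exact binomial upper limit 8.22%), 5.88% of melanoma-like DP cells and 48.8% of WBC.

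Cd80 (chromosome 16, 38455561 to 38496335) was lower than Cd86 in WBC, at 5.83 against 47.1 CPM per kb. CTC had 0, 2.45, 0, 0.167 and 0 CPM, and all counts of replicate 2 came from 1 cell. DP had 0, 1.72 and 5.42 CPM (lowest, median and highest) and WBC 0.43, 13.5 and 71.3, with overlap. In the highest WBC sample, replicate 2, 1 cell gave 83.8% of the counts. CTC minus WBC was -9.00 ± 2.55 (log2, edgeR adjusted p = 0.00994; lower in 5 of 5 samples). DP minus WBC, at -3.16 ± 1.93, was not called (adjusted p = 0.266), although DP was lower in 6 of 6 samples.

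**Figure D3:**
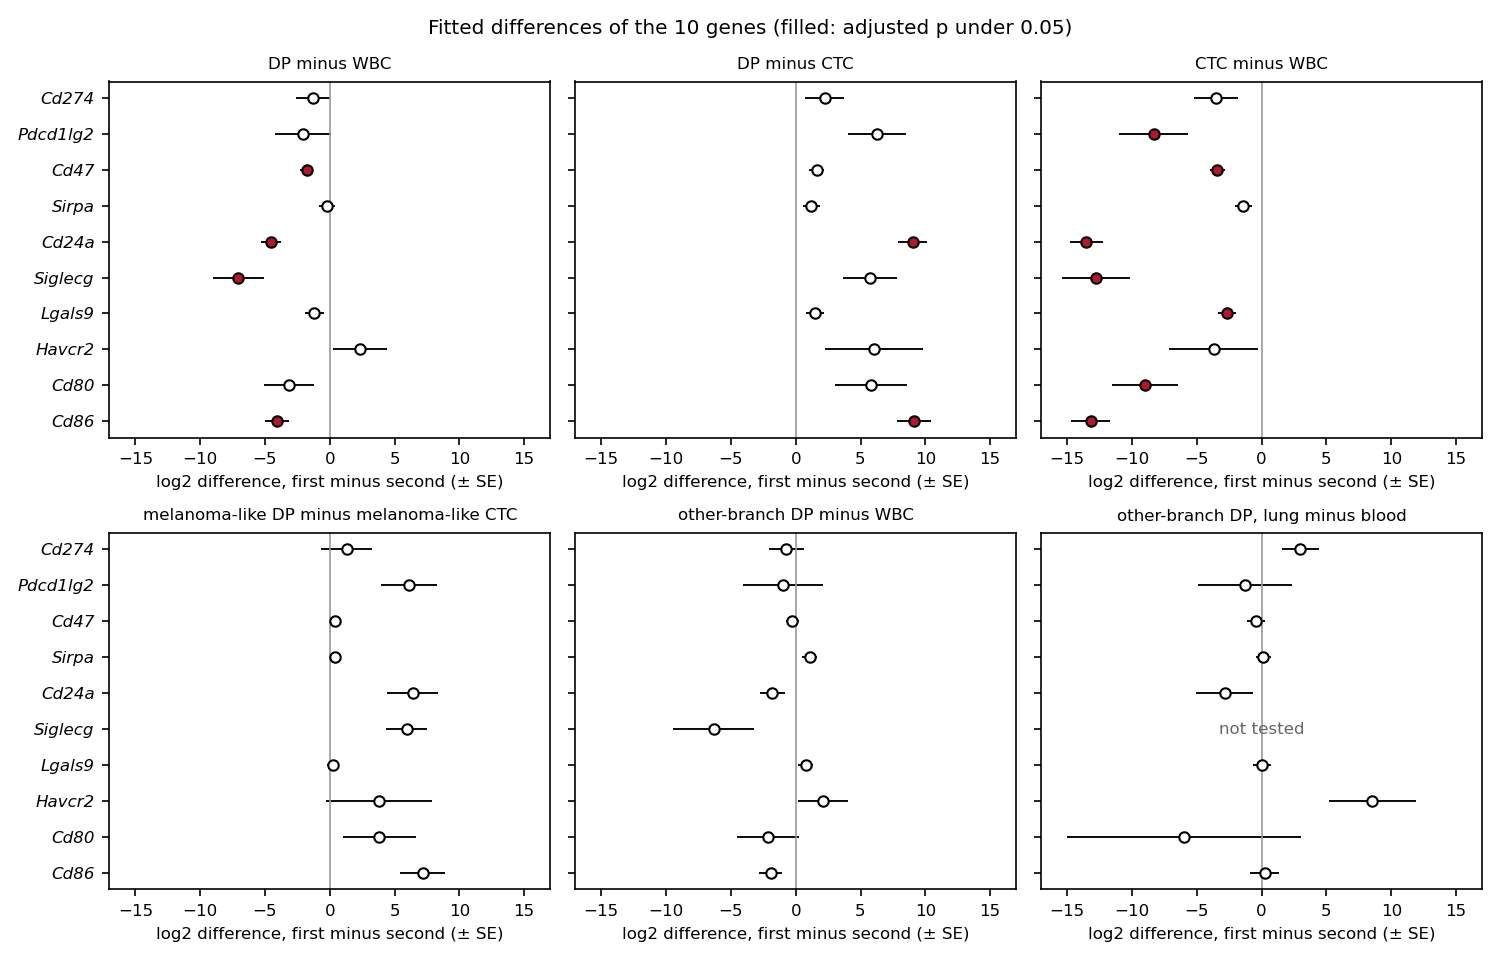
Log2 difference of each gene (x axis, with the standard error as a bar) in 6 comparisons, 1 panel each, with filled points for adjusted p under 0.05. Filled points number 4, 2 and 7 in the upper panels and 0 in each of the lower panels, where the classes are compared within a branch or the tissues with each other.

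Melanoma-like DP cells were compared with melanoma-like CTC to see which of the 10 genes differ between the classes when DP cells of the other branch are set aside. None was called, which does not show that the classes are alike, and edgeR called 4 of 11856 genes (0.0337%) and 711 had an unadjusted p under 0.05. DESeq2 called 785 genes, among them Cd24a (adjusted p = 6.31e-06), Siglecg (4.37e-05), Cd86 (1.01e-06) and Pdcd1lg2 (0.0140). The fitted differences were 6.41 ± 1.96 for Cd24a (edgeR adjusted p = 0.504), 5.93 ± 1.59 for Siglecg (0.374) and 7.18 ± 1.73 for Cd86 (0.318), each higher in 5 of 5 samples. Melanoma-like DP of the 8 samples (replicates 1, 2, 3 and 5 to 9) had 7.78, 42.2, 12.5, 1.55, 2.65, 0.690, 7.02 and 20.4 CPM of Cd24a, so all lay above CTC. For Sirpa and Lgals9, read in all classes, the fitted differences were 0.40 ± 0.24 and 0.21 ± 0.40 on the log2 scale. The median over the 10 genes was 3.80, against 0.12 over all genes tested.

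In melanoma-like DP, leukocyte genes moved with these differences. The summed level of 6 pan-leukocyte markers was 30.7 to 249 CPM per sample in melanoma-like DP (median 66.6) and 0.6 to 7.3 in CTC, against 2952 to 5892 in DP of the other branch. Cd24a, Cd86 or Siglecg reached 10 CPM in 25 of 272 melanoma-like DP cells (9.19%), of which 14 held 1 of the genes, 8 held 2 and 3 held all. These 25 cells came from all 8 samples, 21 from blood and 4 from lung. In them the pan-leukocyte markers summed to at least 10 CPM in 22 of 25 cells (88%, median 291 CPM), against 47 of the other 247 (19.0%, median 0.96 CPM). Melanocyte markers had medians of 28845 and 29407 CPM in the 25 and the 247 cells, and depth had medians of 19.5 and 19.0 Mcounts.

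Among the 12 melanoma-like DP cells with Siglecg, all 12 held a B-cell marker at 10 CPM or more, with a median sum of 608 CPM over the B-cell list. All 10 cells with Cd86, and 14 of 17 with Cd24a, held a pan-leukocyte marker at that level. Melanoma-like DP cells under 10 CPM of pan-leukocyte markers numbered 203, in a split made after the data were seen. In them Cd86 averaged 0.0232 ± 0.0122 CPM (SD, n = 8 samples) and Siglecg 0.0420 ± 0.0442, inside the range of CTC. The split leaves out every cell with Cd86 or Siglecg at 10 CPM or more (lowest pan-leukocyte sums 40.7 and 190 CPM). The low means of these genes thus follow from the split and are no separate evidence. Cd24a averaged 2.40 ± 4.23 CPM in the 203 cells, with a median of 0.226. It was at 7.21 and 10.9 CPM in replicates 8 and 9 and at 0.491 or less in the others. Cd47 (70.5 ± 8.16 CPM), Sirpa (156 ± 85.8) and Lgals9 (98.7 ± 30.0) stayed near their level in all melanoma-like DP. No doublet caller was run, and the part of leukocyte RNA from other cells in these differences was not tested.

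**Figure D4:**
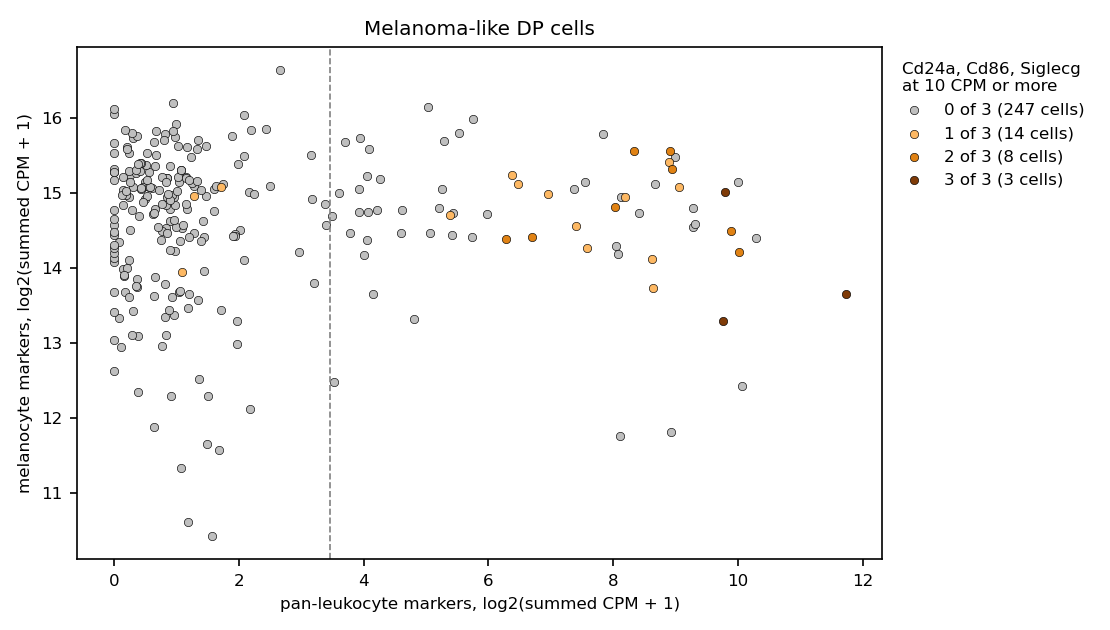
Each of the 272 melanoma-like DP cells by the summed level of pan-leukocyte markers (x axis) and of melanocyte markers (y axis), both as log2(CPM + 1), coloured by how many of Cd24a, Cd86 and Siglecg reached 10 CPM. The dashed line marks 10 CPM of pan-leukocyte markers, and 22 of the 25 coloured cells lie to its right.

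Among the melanoma-like controls labelled naive, Cd24a was at 35.8 CPM in CDP (exact Poisson interval 35.1 to 36.6), 24.9 in Duplike (24.5 to 25.4) and 1.22 in PltLike (1.12 to 1.33). B16F10 had 0.067 CPM (0.042 to 0.102). Cd86 was at 4.67, 6.26 and 0.008 CPM in CDP, Duplike and PltLike, and at 0.012 in B16F10. Siglecg was at 12.0 CPM in Duplike, with 0 counts in CDP, which allows up to 0.0115 CPM. With 1 sample each these values have no replicate check, and the intervals cover counting error only. CDP and Duplike thus lay inside the range of melanoma-like DP for Cd24a and Cd86 (the highest DP values were 42.2 and 6.01 CPM) except that Duplike was above it for Cd86, and their pan-leukocyte sums were 311 and 277 CPM, against 1.1 in PltLike and 3.9 in B16F10.

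DP cells of the other branch were compared with WBC to see whether DP cells outside the melanoma-like branch carry these genes at other levels than sorted WBC. Not all of these cells were leukocyte-like: cluster 9, led by fibroblast genes, held 13 lung and 1 blood DP cells and 4 WBC. The fibroblast list summed to 0.0370 to 11244 CPM per sample in DP of this branch (median 622) and 0.0250 to 21661 in WBC (median 2.66), and lung epithelial genes reached 44.7 CPM in DP and 22716 in WBC (medians 8.00 and 0.423). Their part in the comparison was not tested. None of the 10 was called, and edgeR called 0 of 9834 genes (0.0%), with 776 at an unadjusted p under 0.05, while DESeq2 called 1752, with Siglecg as its only member (adjusted p = 0.000441). Siglecg ranged from 0 to 498 CPM in 9 DP samples (median 15.8), and differed from WBC by -6.32 ± 3.13 (log2, edgeR adjusted p = 0.642). Cd86 had 0, 52.3 and 221 CPM (lowest, median and highest), with a difference of -1.93 ± 0.89 (0.608). Sirpa was higher in 5 of 6 samples, by 1.07 ± 0.58 (0.673), and overlapped with WBC. The median over the 10 genes was -0.86, and that of all genes 0.74.

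Tissue was compared within these DP cells, between 7 lung and 6 blood samples, of which replicates 1, 2, 3 and 7 held both. Havcr2 was at 0, 0.147, 0, 0, 28.3 and 0.150 CPM in blood (replicates 1, 2, 3, 6, 7 and 9). In lung it was at 0.090, 71.4, 73.7, 20.1, 177, 77.1 and 38.8 CPM (replicates 1, 2, 3, 4, 5, 7 and 8). All but 1 lung sample were above all but 1 blood sample, and lung was higher in 4 of 4 samples with both tissues. The log2 difference was 8.54 ± 3.36 but was not called (edgeR adjusted p = 0.988), nor was any of the 9 tested members, which does not show that the tissues are alike, and 13 of 10103 genes were called (0.129%, of which 0.0693% higher and 0.0594% lower) and 434 had an unadjusted p under 0.05. DESeq2 called Havcr2 (6.59, adjusted p = 0.000154) and Cd80 (-6.39, adjusted p = 0.0197) among 1456 genes. After thinning, Havcr2 had a count in 5 of 72 such cells from blood (6.94%, exact binomial interval 2.29 to 15.5) and 44 of 99 from lung (44.4%, 34.5 to 54.8), or 15.1% and 59.0% without thinning. These intervals treat cells of 1 sample as independent and are no test of tissue.

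Siglecg and Cd24a ran the other way in these cells. Siglecg was at 59.7, 139.6, 0, 498, 51.3 and 94.0 CPM in the 6 blood samples and at 0.037 CPM or less in all 7 lung samples. Only replicate 3 of blood fell within the lung range. Siglecg did not pass the filter on low counts in this comparison, and was called lower in lung by edgeR without that filter (log2 -10.43 ± 2.64, adjusted p = 0.0135) and with sums of at least 5 cells (-11.02 ± 2.11, adjusted p = 0.00374), but not without replicate 3 (-10.92 ± 1.66, adjusted p = 0.0753). Cd24a was at 1329, 787, 0.117, 287, 398 and 251 CPM in blood and at 54.8, 3.31, 284, 239.7, 21.8, 106 and 0.123 in lung, so the tissues overlapped (log2 -2.86 ± 2.21, not called). Cd274 was higher in lung in 3 of 4 samples, by 2.99 ± 1.41 (not called, edgeR adjusted p = 1.0), and had a count in 63.6% of thinned lung cells and 31.9% of blood cells.

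Cell types differed between the tissues as well. Blood DP cells of this branch lay mostly in cluster 3 (55 cells), led by Itgam and Cfp, and lung cells in clusters 5 (48) and 4 (42). In cluster 3, as in cluster 4, all 8 monocyte and macrophage markers had medians of 10 CPM or more. Cluster 9, led by fibroblast genes, held 13 lung and 1 blood DP cells, and the fibroblast list summed to 0.0321 to 15297 CPM in lung (median 622) and 0 to 4767 in blood (median 0.215). The alveolar macrophage list summed to between 292 and 20739 CPM in the lung samples and between 0.352 and 4539 in those of blood. The B-cell list reached 3.12 CPM at most in lung and 4346 in blood, and was at 0 in the lowest sample of each. The part of this make-up in the tissue differences was not tested. Among the companion genes tested, Cd200, a ligand that restrains myeloid cells, was called higher in lung (13.99 ± 1.94, edgeR adjusted p = 0.00768).

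**Figure D5:**
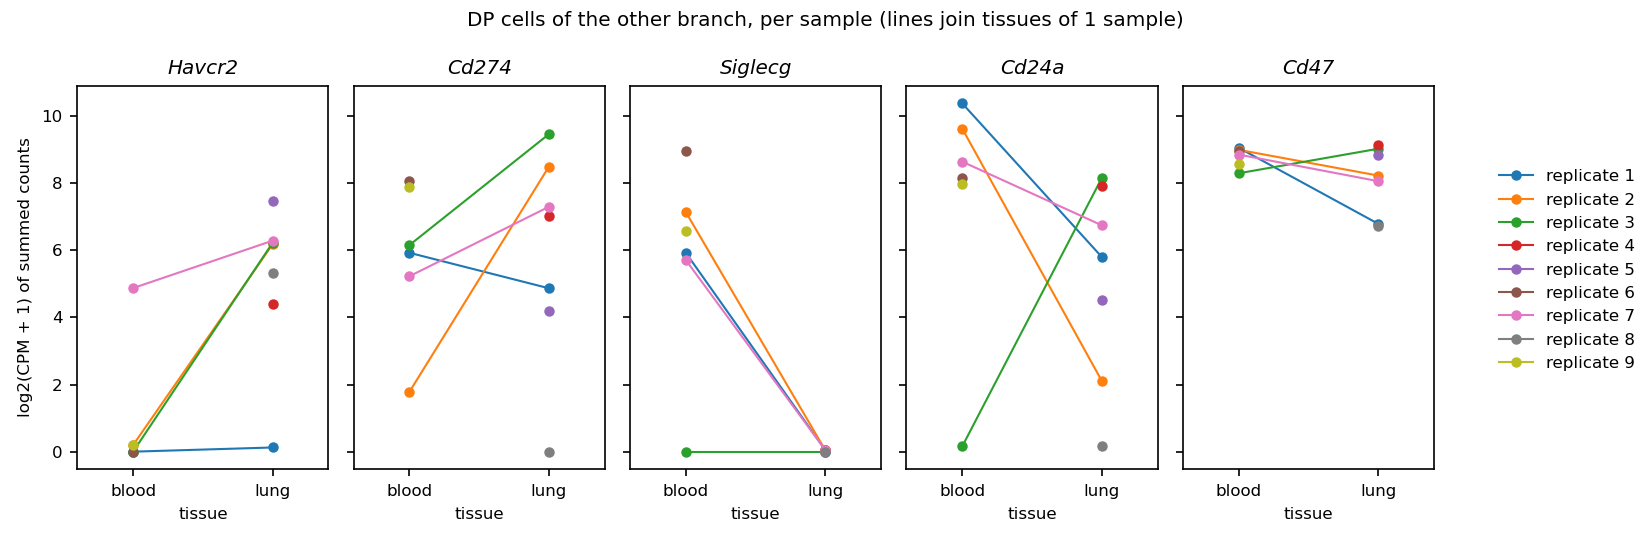
Level of 5 genes as log2(CPM + 1) of summed counts (y axis) in blood and lung (x axis) of DP cells of the other branch, 1 point per sample, with lines joining the tissues of 1 sample. Havcr2 is higher at the lung end of all 4 lines, while Siglecg was at 0.037 CPM or less in every lung sample.

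Other genes of these pathways were read from 5 lists. Between DP and CTC, 5 of 16 tested checkpoint genes of the B7 and CD28 families and their like were called higher in DP, among them Cd200r1 (log2 10.03), Vsir (9.63) and Cd200 (8.43). Of 10 phagocyte inhibitory receptors and phosphatases 7 were higher, led by Pirb (10.56), Clec12a (10.36) and Cd300a (9.67), at a list median of 9.09. Of 24 engulfment receptors, bridging proteins and signals 14 were higher, including the Fc receptor gene Fcgr1 (10.67), the bridging ligand gene Gas6 (10.49) and the scavenger receptor gene Cd36 (10.06). The 12 genes of PD-L1 stability and interferon gamma signalling had a median of 0.71 and no call, and 3 of 8 partners of CD47 were higher, with Sirpb1c at 10.36 and the CD47 ligand gene Thbs1 at 6.19. Sirpb1a (9.30) was the other, named after its value was seen. The median of all genes was 0.21, and 5.85% of 12595 genes were called higher in DP and 0.0% lower.

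Against WBC, where 2.91% of all genes were called lower in DP and 17.6% higher, DP were called lower for 7 of 24 engulfment genes, with Itgam, an integrin of myeloid cells (-4.34), Tyrobp, a signalling adaptor (-3.59), and Fcgr3, an Fc receptor (-3.51), and higher for 2, Tyro3, a TAM receptor (8.71), and Megf10 (9.24), named after its value was seen. Of the checkpoint list 1 of 16 was higher, Nectin2, a ligand of TIGIT (6.18 ± 1.56, edgeR adjusted p = 0.00744). Cd300lf (-2.89) and the phosphatase gene Ptpn6 (-1.86) were the 2 lower of 10 phagocyte inhibitory genes. In the interferon gamma list, B2m, the light chain of class I molecules (-2.22), and Ifngr1, a receptor chain for interferon gamma (-1.77), were lower, and of the CD47 partners Thbs1 (-3.35). List medians were -2.24 for the engulfment genes, -0.13 for the checkpoint list, -2.24 for phagocyte inhibitory genes, -1.10 for the interferon list and -0.08 for CD47 partners, against 1.17 for all genes.

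Between CTC and WBC, where 1338 of 12595 genes (10.6%) were called lower in CTC and 2010 higher, 9 of 10 phagocyte inhibitory genes were called lower in CTC, led by Pirb (-12.94), Cd33 (-12.73) and Clec12a (-12.61), and 18 of 24 engulfment genes, led by Timd4 (-13.20), Itgam (-13.06) and Fcgr1 (-12.89). Tyro3 (9.03) and Megf10 (7.84) were higher in CTC. The checkpoint list had 8 lower, among them Vsir (-13.15), Cd200r1 (-10.99) and Icosl (-9.71), and 1 higher, Nectin2 (4.97). In the interferon gamma list, B2m (-3.61), Ifngr1 (-3.13) and Cmtm6, which keeps PD-L1 at the cell surface (-2.84), were the 3 lower of 12. Of the CD47 partners 4 of 8 were lower, with Sirpb1b (-13.15), Sirpb1c (-11.81) and Thbs1 (-9.54). No list gene was called in either comparison within a branch, and 1, Cd200, between the tissues.

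Over 30 sums of sample, tissue and class, the genes whose pattern was most like that of a member were found by Pearson's r of log2(CPM + 1) among 9330 genes, as a description over sums that share samples and classes. Cd24a was most like Cytip (0.94), Cd37 (0.93) and Glipr2 (0.93), and Cd86 most like Inpp5d (0.89), Sla (0.88) and Nckap1l (0.87). For Siglecg these were H2-DMb2 (0.88), Il5ra (0.85) and Diras2 (0.84), and for Havcr2 Creb5 (0.80), Lilra5 (0.79) and Ms4a7 (0.78). Cd47 was nearest to Actr2 (0.90), Sp110 (0.90) and Ifi30 (0.88), and Lgals9 to Cyrib (0.87), Ptpn18 (0.81) and Pdlim1 (0.80). Cd274 was nearest to Cd200 (0.80), Zfp703 (0.79) and Gadd45b (0.76), and Sirpa to Abhd12 (0.82), Bmp2k (0.78) and Pip4k2a (0.76). Among the members themselves, Cd24a and Cd86 had r = 0.78, and Siglecg and Havcr2 r = -0.39.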

How the data were processed

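Per the submitters' processing notes, reads were handled with Trim Galore, HISAT2, featureCounts and SAMtools and build mm10. Their versions and strand settings were not found. The deposited table holds raw counts, without normalization, for each gene in each cell. Of nonzero values 56.7% were even, and PCR copies were not marked, so intervals and limits from 0 counts (3 counts over the group) cover counting error only. Matched DNA data were not analysed here.

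Sums of counts over the cells of a sample, tissue and class (2 cells or more) numbered 30, and levels are CPM of sums without further scaling. Tests used edgeR 4.0.16 (quasi-likelihood, TMM, filterByExpr) and limma 3.58.1 under R 4.3.3. The model had tissue as a term and the sample as a replicate block, since the classes of a sample were sorted from it, and p-values were adjusted by Benjamini-Hochberg (threshold 0.05). Deviations of 41 pairs of sums of the same sample had a median correlation of 0.0261 (-0.0682 to 0.214), and 246 pairs of different samples -0.0050. Cells were clustered on 2000 variable genes and 15 principal components (Ward linkage) into 10 clusters and 2 branches, with the members left out. Every cell is a library of its own, so no cell barcodes are shared. Shares of cells with a count were taken after thinning to 500000 counts, and shares at 10 CPM or more from all cells without thinning. Python 3.11.15, NumPy 2.4.6, pandas 2.3.3 and SciPy 1.17.1 were used. Only the edgeR fits were tested on simulated data. Gene positions are from GENCODE (GRCm38) and promoters from RefSeq.

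All 10 members are named, with Ptprc and Pmel as checks, up to 3 called genes per list, comparison and direction by size among genes averaging 10 CPM or more, and the 3 genes most like each member with that mean. Of 77 list genes, 1 was not found in the table used here. The members and lists were chosen with earlier results of these data known. Alternatives were DESeq2 1.42.0, scaling, filters, the block, weights, cells per sum, tissue, thinning, clustering and each sample left out.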

Additional observations from a re-analysis of the deposited data

Results flagged for a closer look

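Samples far from the others of their group were found for 14 of 50 groups of samples tested by the gap between the outermost value and its neighbour. The cut-offs are those that flag about 1 in 20 groups of normally distributed values. CPM here are skewed and some groups share cells, so the share to be had by chance is not known. Among sorted classes, Cd274 in DP was at 346 CPM in replicate 3 (the next sample had 134), Cd47 in DP at 558 CPM in replicate 4 (291) and Cd86 in DP at 97.5 CPM in replicate 2 (28.8), where 1 cell gave 84.3% of the counts. In CTC, Havcr2 stood at 15.2 CPM in replicate 1 and Cd80 at 2.45 CPM in replicate 2, each from 1 cell alone, and Pdcd1lg2 at 0.114 CPM in replicate 3, with 94.1% from 1 cell. In WBC, Havcr2 was at 148 CPM in replicate 5 (73.5% from 1 cell) and Cd80 at 71.3 CPM in replicate 2 (83.8%).

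Within the branches, Cd47 in melanoma-like DP was at 118 CPM in replicate 2, where the next sample had 86.5. In DP of the other branch, Cd274 was at 689.8 CPM in replicate 3 (the next had 303), with 11.9% from 1 cell, and Havcr2 at 177 CPM in replicate 5 (42% from 1 cell). Replicate 6, with 8 such cells, had 35.0 CPM of Pdcd1lg2 (93.6% from 1 cell) and 498 CPM of Siglecg (50.6%), and replicate 2 had 221 CPM of Cd86 (87.4%). In none of 30 differences between a pair of classes did every blood sample go one way and every lung sample the opposite way.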

How the results depend on the processing

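Among log2 differences of members under other settings, 371 kept direction and call, 21 gained a call, 26 lost one and 25 reversed, and with a replicate left out 498, 2, 6 and 13 did. Called members numbered 1, 4 and 1 for DP minus WBC, CTC minus WBC and lung minus blood with sums of at least 5 cells, 6 (DP minus CTC), 4 (melanoma-like), 1 (other branch) and 2 (lung minus blood) with DESeq2, 1 for lung minus blood without a filter, and 0 in each class comparison of lung cells alone, chosen after seeing the data. Without a replicate they ranged over 3 to 4, 2 to 3 and 6 to 8 for DP minus WBC, DP minus CTC and CTC minus WBC. Genes called numbered 2586, 737 and 3348 in these comparisons, and 5283, 1469 and 5829 with DESeq2, 294, 160 and 1281 with at least 5 cells, 5563, 262 and 6354 with equal weight per cell, 0, 80 and 101 in lung, and 336 for DP minus CTC in blood. Without a replicate the ranges were 1599 (replicate 5) to 2580, 361 (replicate 3; 367 without replicate 5) to 725 and 2387 to 3343. Melanoma-like cells had 4, and 785 with DESeq2, 13 with equal weights, 54 with no replicate block and 0 to 4 without a replicate. The other branch had 0, and 1752, 7, 14 without a filter, and 0 to 1. Lung minus blood had 13, and 1456, 22, 138 without a filter, 105 with at least 5 cells and 7 (replicate 4) to 61 (replicate 1), with 20, 21 and 38 without replicates 2, 6 and 7. No replicate block gave 2818 genes for DP minus WBC.

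Reversed differences were all of uncalled members. DP minus WBC: Cd274 3.86 and Pdcd1lg2 0.053 in blood, Sirpa 0.75 and Lgals9 0.28 with equal weights, 1.25 and 1.36 in lung. DP minus CTC: Siglecg -0.68 in lung and Havcr2 -0.078 with no block. CTC minus WBC: Havcr2 11.52 in blood and 1.5 with no block. Melanoma-like: Cd274 -0.21 and Havcr2 -0.90 with no block, Lgals9 -0.040 with at least 5 cells. Other branch: Pdcd1lg2 0.85 with at least 5 cells, Cd47 0.14 with equal weights. Lung minus blood: Sirpa, Lgals9 and Cd86 -0.25, -0.26 and -0.15 with DESeq2 and with its size factors, -0.59, -0.19 and -0.31 with equal weights, and Lgals9 -0.076 with no block. With a replicate left out, Pdcd1lg2 ranged from -3.09 to 1.61 and Sirpa from -0.61 to 0.096 in DP minus WBC, Havcr2 from -5.51 to 2.64 in CTC minus WBC, and Pdcd1lg2 from -2.67 to 0.61 in the other branch. In lung minus blood the ranges were -2.75 to 0.26 (Pdcd1lg2), -0.89 to 0.12 (Cd47), -0.14 to 0.39 (Sirpa), -0.36 to 0.53 (Lgals9) and -0.090 to 0.52 (Cd86). The cause was not tested. Size factors moved the median of all genes from 1.17 to 0.95 for DP minus WBC. Another clustering moved 0 cells. Of the shares of cells, 68 kept within their interval and 52 moved with thinning or a minimum of 10 CPM, the latter chosen after seeing the data.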
